A study of Rattus norvegicus with 26 samples.

Results

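The rat miR-15 family of cell cycle miRNAs was followed through rno-miR-15b, rno-miR-16, rno-miR-195 and rno-miR-497, chosen by the names that probes carry in the scanner files. They are 4 of the 677 miRNAs on the array. The study asked how liver miRNAs differ when a smaller or a larger share of the liver is lost: 1/3PH is removal of the left lateral lobe, and 2/3PH is the classical larger resection. Right lobes of male Sprague-Dawley rats were taken at 6, 12, 24 and 36 hours (6H to 36H), and right lobes of rats without resection served as normal liver. RNA of 26 rats was read on 26 single-colour microarrays, 1 rat each, in 9 groups of 3 rats, except 1/3PH 6H with 2 rats, where the study excluded 1 array. Groups follow the sample titles: the normal livers carry "sham" as their protocol label, and source labels of later groups give 13, 14, 25, 26, 37 or 38 hours where titles give 12, 24 or 36. Ages are not in the labels.

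MicroRNAs pair with messenger RNAs mainly through the seed near their 5′ end, so family members with the same seed share many targets. This family is known for holding back the cell cycle through targets such as cyclins D1 and E1, Cdk6, Chek1 and Wee1, and for favouring cell death through Bcl2. Resting liver cells in the lobes left by a resection begin to divide, and miR-195 is also known from the newborn heart, where it restrains cell division.

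The mature sequences are shown because the family is defined by them and because the members with the most similar sequences did not move alike. Capitals mark the seed, bases 2 to 8. The sequences come from RefSeq (build GRCr8, all on the + strand), where 4 of 4 members were matched, each at 1 locus and as the arm that the array names without a suffix.
rno-miR-15b-5p: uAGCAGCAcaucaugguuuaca
rno-miR-16-5p: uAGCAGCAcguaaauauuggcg
rno-miR-195-5p: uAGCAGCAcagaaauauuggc
rno-miR-497-5p: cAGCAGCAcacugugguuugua

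Of 693 mature rat miRNAs in that table, 5 carry the seed AGCAGCA: the 4 members and rno-miR-322-5p. Beyond the seed the members fall into unlike pairs. miR-16 and miR-195, which come from different chromosomes, share 19 of 21 bases and differ by G10A and U11G, with positions counted from 1 at the 5′ end and the base of miR-16 given first. miR-15b shares 14 of 22 bases with miR-16, with 8 substitutions (A10G, C12A, U14A, G15U, G16A, U19G, A20G and A22G, miR-15b first), and 16 of 22 with miR-497. miR-195 and miR-497 share 12 of 21 bases. Whether each probe tells these sequences apart was not tested.

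The members lie in 2 clusters. miR-15b at chr2:155555197-155555218 and miR-16 at chr2:155555343-155555364 (GRCr8, + strand) start 146 bases apart, with 124 bases between them, within the span of Smc4, a condensin subunit gene, between Ift80 and Trim59. miR-497 at chr10:55450172-55450193 and miR-195 at chr10:55450509-55450529 (GRCr8, + strand) start 337 bases apart, with 315 bases between them, within no gene's span and between Bcl6b and C10h17orf49. Members of a cluster are usually cut from one primary transcript, so miR-15b is compared below with its cluster mate miR-16. The array reads mature sequences, and whether all miR-16 signal comes from this cluster was not tested.

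Values are scaled signals: background-subtracted spot signal, summed over a miRNA's probes and divided so that every array has the same 75th percentile over 109 bright probes, then brought back to signal units by the geometric mean of these percentiles. A member passed, or was called, where the limma p adjusted over all miRNAs tested was under 0.05. All 4 members were detected on 26 of 26 arrays, each by 2 probes that were well above background on all of them and had 0 saturated spots. Detection covered 118 to 155 miRNAs on 25 arrays, with a total signal of 57382.5 to 93759.9. Replicate 2 of 1/3PH 12H stood apart, with 91 detected miRNAs and a total of 17273.2. The arrays lie on 6 slides scanned on 3 days. The number of arrays limits the precision. Each limma p-value rests on the spread between arrays within groups, 1 rat each, which also holds differences between slides and scan days.

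miR-15b is the family member that lies in the same cluster as miR-16. In normal liver its scaled signal was 264.5, 211.1 and 210.7. After 1/3PH it was 307.8 and 268.2 at 6H, 278.3, 254.0 and 288.7 at 12H, 274.6, 278.5 and 276.0 at 24H, and 224.9, 237.7 and 221.2 at 36H. After 2/3PH it was 238.8, 265.7 and 254.4 at 6H, 261.5, 340.8 and 303.6 at 12H, 278.4, 426.0 and 289.9 at 24H, and 555.9, 544.5 and 623.4 at 36H. The 3 livers at 2/3PH 36H were the highest of all 26 and overlapped with no group, while 1/3PH 36H lay within the range of normal liver. From the highest, the geometric group means (SD in log2) were 573.6 (0.11) at 2/3PH 36H, 325.2 (0.34) at 2/3PH 24H, 300.2 (0.19) at 2/3PH 12H, 287.4 (0.14) at 1/3PH 6H, 276.4 (0.01) at 1/3PH 24H, 273.3 (0.1) at 1/3PH 12H, 252.7 (0.08) at 2/3PH 6H, 227.8 (0.05) at 1/3PH 36H and 227.4 (0.19) in normal liver. Neighbours in this order overlapped, except at the step of 0.82 in log2 below 2/3PH 36H and that of 0.15 between 2/3PH 6H and 1/3PH 36H.

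miR-16, the cluster mate, had scaled signals of 822.9, 508.5 and 620.4 in normal liver. After 1/3PH they were 870.3 and 842.4 at 6H, 842.9, 409.7 and 843.1 at 12H, 852.7, 817.2 and 630.3 at 24H, and 788.5, 802.2 and 739.4 at 36H. After 2/3PH they were 696.0, 781.5 and 545.6 at 6H, 738.1, 927.0 and 702.4 at 12H, 785.7, 907.9 and 787.5 at 24H, and 1029.0, 966.0 and 889.5 at 36H. The 2/3PH 36H livers again lay above all normal livers, but 1 array at 2/3PH 12H and 1 at 2/3PH 24H reached their range, and normal livers themselves were widely spread. Group means ran from 959.8 (0.11) at 2/3PH 36H through 856.2 (0.03) at 1/3PH 6H, 825.1 (0.12) at 2/3PH 24H, 783.3 (0.21) at 2/3PH 12H, 776.2 (0.06) at 1/3PH 36H, 760.1 (0.24) at 1/3PH 24H, 667.0 (0.26) at 2/3PH 6H and 662.8 (0.6) at 1/3PH 12H to 637.9 (0.35) in normal liver. Only the first step, 0.16 in log2, separated neighbours without overlap.

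miR-195, known for restraining cell cycle genes, had scaled signals of 423.2, 267.6 and 390.8 in normal liver. After 1/3PH they were 414.5 and 430.8 at 6H, 326.2, 198.0 and 313.6 at 12H, 298.5, 322.9 and 241.6 at 24H, and 327.0, 373.2 and 288.0 at 36H. After 2/3PH they were 378.8, 443.1 and 361.4 at 6H, 275.7, 305.7 and 269.2 at 12H, 311.1, 284.1 and 269.2 at 24H, and 218.5, 232.5 and 223.0 at 36H. The 2/3PH 36H livers were the lowest apart from replicate 2 of 1/3PH 12H and lay below all normal livers. Group means were 422.6 (0.04) at 1/3PH 6H, 392.9 (0.15) at 2/3PH 6H, 353.7 (0.35) in normal liver, 327.5 (0.19) at 1/3PH 36H, 287.6 (0.11) at 2/3PH 24H, 285.6 (0.22) at 1/3PH 24H, 283.1 (0.1) at 2/3PH 12H, 272.6 (0.4) at 1/3PH 12H and 224.6 (0.05) at 2/3PH 36H, and every pair of neighbours overlapped.

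miR-497, the cluster mate of miR-195, had scaled signals of 295.6, 194.9 and 276.1 in normal liver. After 1/3PH they were 281.3 and 285.9 at 6H, 239.9, 155.8 and 229.1 at 12H, 217.7, 244.6 and 204.3 at 24H, and 238.2, 250.9 and 202.2 at 36H. After 2/3PH they were 281.4, 298.7 and 264.7 at 6H, 216.9, 236.3 and 212.0 at 12H, 218.8, 220.5 and 189.0 at 24H, and 185.0, 190.1 and 181.5 at 36H. The 3 livers at 2/3PH 36H lay below all normal livers, with 1 liver at 2/3PH 24H as low and replicate 2 of 1/3PH 12H lower. Group means were 283.6 (0.02) at 1/3PH 6H, 281.2 (0.09) at 2/3PH 6H, 251.5 (0.32) in normal liver, 229.5 (0.16) at 1/3PH 36H, 221.6 (0.13) at 1/3PH 24H, 221.5 (0.08) at 2/3PH 12H, 208.9 (0.13) at 2/3PH 24H, 204.6 (0.34) at 1/3PH 12H and 185.5 (0.03) at 2/3PH 36H, again with overlap between all neighbours.

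**Figure D1:**
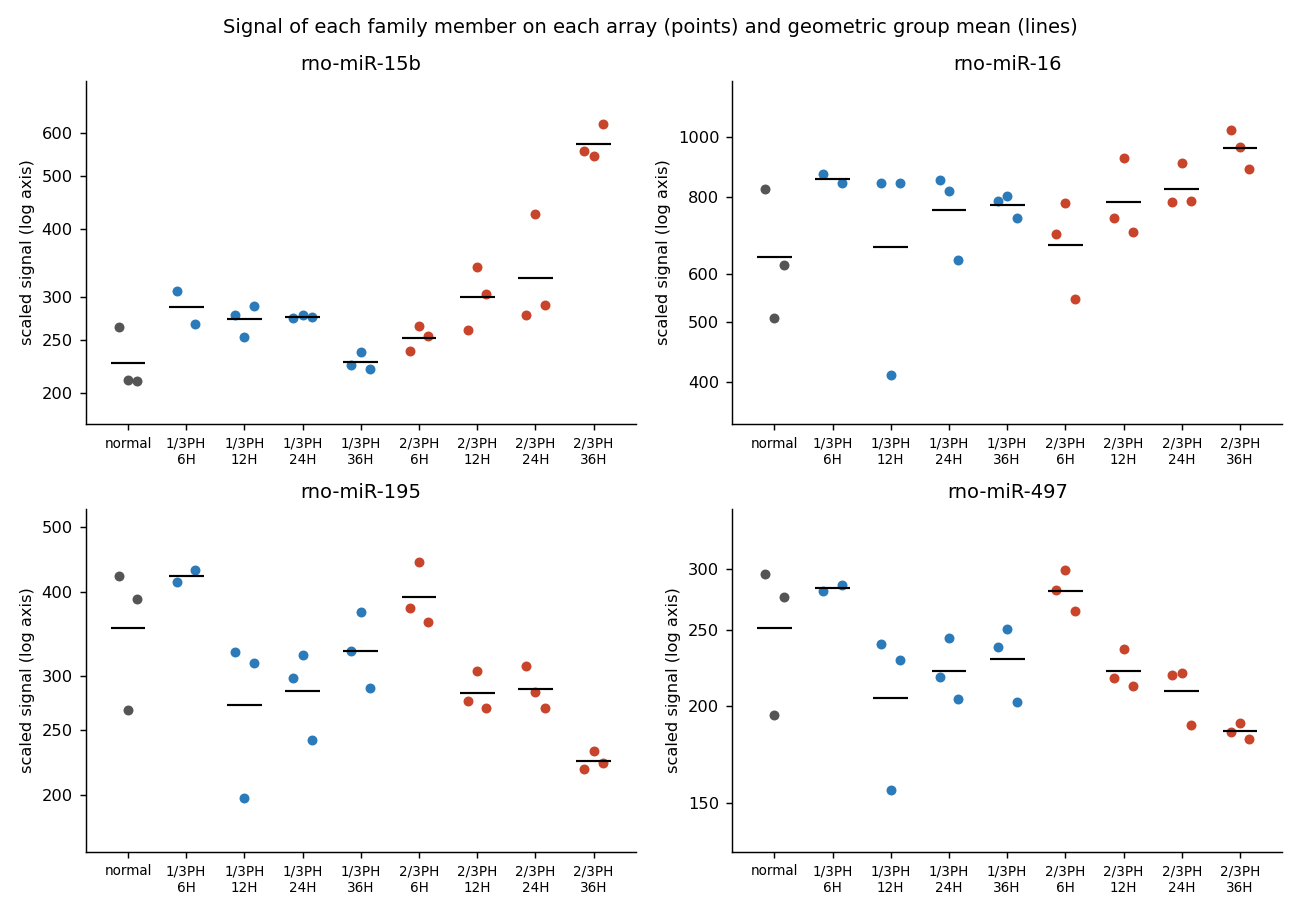
Scaled signal (log axis) of each member on each array (points) with the geometric group mean (lines), by group. The 2/3PH 36H livers reached 544.5 to 623.4 for miR-15b and 218.5 to 232.5 for miR-195.

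At 36H after 2/3PH the family had split. Against normal liver, miR-15b rose 2.52-fold, by 1.33 in log2 (SE 0.141, 95% interval 1.04 to 1.63), and was higher in 3 of 3 livers than in all normal livers (limma, adjusted p = 1.57e-06). miR-195 fell to 0.635-fold, a log2 change of -0.66 (SE 0.181, -1.03 to -0.28), lower in 3 of 3 livers (adjusted p = 0.0114). The other two moved the same way as their cluster mates without passing the test: miR-16 by 0.59 (SE 0.227, 0.11 to 1.06, adjusted p = 0.0743, higher in 3 of 3) and miR-497 by -0.44 (SE 0.157, -0.77 to -0.11, adjusted p = 0.0567, lower in 3 of 3). So 2 of 4 members passed an adjusted p of 0.05, against 27 of 144 tested miRNAs (18.8%), whose median change was 0.06. In bulk liver, fewer cells that carry a miRNA and less of it per cell cannot be told apart.

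Those 36H values were set against the scan batches. On scan day 2, which is 1 slide with 2 of the 2/3PH 36H livers and 1 normal liver, miR-15b differed by 1.38, miR-16 by 0.68, miR-195 by -0.79 and miR-497 by -0.56. On day 3, with 1 liver of each group on different slides, the differences were 1.56, 0.81, -0.26 and -0.1, so all 4 directions held within both days and the fall of miR-195 was smaller on day 3. With scan day as a fixed term, miR-15b differed by 1.41, miR-16 by 0.71 (adjusted p = 0.00188), miR-195 by -0.6 and miR-497 by -0.41 (adjusted p = 0.0354), so that all 4 members passed. With slide as a random block, miR-16 (0.57, adjusted p = 0.0376) and miR-497 (-0.46, adjusted p = 0.0222) passed as well. With slide as a fixed block neither did, at 0.68 (adjusted p = 0.0516) and -0.56 (adjusted p = 0.072).

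Scaling and single arrays decided some of these calls. Without scaling or with the 75th percentile over all probes, miR-15b kept its direction (1.18 and 1.25) but not its call (adjusted p = 0.15 and 0.325), as did miR-195 (-0.81 and -0.74). With normexp background correction miR-195 was at -0.28 (adjusted p = 0.169) and miR-497 at -0.04 (adjusted p = 0.846), so the call of miR-195 was lost, while miR-15b passed with 0.97 (adjusted p = 0.000299). The call of miR-195 was lost without normal replicate 1 (-0.53, adjusted p = 0.0886) or normal replicate 3 (-0.58, adjusted p = 0.0609), and miR-16 passed without normal replicate 1 (0.77, adjusted p = 0.0385) or 1/3PH 12H replicate 2 (0.59, adjusted p = 0.0112). miR-497 passed without normal replicate 2 (-0.62, adjusted p = 0.00656), 1/3PH 12H replicate 1 (-0.44, adjusted p = 0.0497) or 1/3PH 12H replicate 2 (-0.44, adjusted p = 0.0156). The 75th percentile over all probes moved the median of all miRNAs to 1.24 at 1/3PH 6H against normal liver, where it had been 0.06, and normexp moved it to 0.63 at 2/3PH 36H.

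Whether the operations differ is the comparison for which the study was built. At 36H miR-15b was 2.52-fold higher after 2/3PH than after 1/3PH (log2 1.33, SE 0.141, 1.04 to 1.63, adjusted p = 1.62e-06), and all 3 livers exceeded all 3 after 1/3PH. miR-195 was 0.686-fold (log2 -0.54, SE 0.181, -0.92 to -0.17, adjusted p = 0.0472), with 3 of 3 livers lower. miR-16 differed by 0.31 (-0.17 to 0.78, adjusted p = 0.463, higher in 3 of 3), and miR-497 by -0.31 (-0.64 to 0.02, adjusted p = 0.262, lower in 3 of 3), but by 0.18 with the 75th percentile over all probes and 0.05 with normexp. The count was 2 of 4 members, against 22 of 144 miRNAs (15.3%) with a median of -0.12. No slide or scan day held both operations at 36H, so no value within a batch exists for this comparison.

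For miR-195 that call was fragile: it held in 3 of 13 alternative settings and without 6 of 26 single arrays. Over single arrays left out, its adjusted p was highest without 1/3PH 36H replicate 2 (-0.45, adjusted p = 0.181). Over the settings it reached 0.963 with the 75th percentile over all probes (-0.06), and it gave -0.32 (adjusted p = 0.382) for scan day as a fixed term and -0.56 (adjusted p = 0.0719) for slide as a random block. The difference of miR-15b was 1.51 and 1.35 in those fits and held without each single array (1.27 to 1.37), but its call was lost without scaling (1.2, adjusted p = 0.396). miR-16 reached 0.73 (adjusted p = 0.0191) with scan day as a fixed term.

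At the earlier times no member passed the test between operations. At 6H miR-15b (-0.19) and miR-16 (-0.36) were lower in 3 of 3 livers after 2/3PH than in both after 1/3PH. Neither passed (limma adjusted p = 0.946 each), and how many of all miRNAs separate this way was not counted. limma called 0 of 4 members at 6H (0.0% of all), 0 at 12H (0.0%) and 0 at 24H (2.78%), and 0 members had an unadjusted p under 0.05 at any of them. The 4 differences ran from -0.36 to -0.01 at 6H, from 0.05 to 0.24 at 12H and from -0.08 to 0.23 at 24H. That 36H differed from 6H was tested directly for the gap between operations: for miR-15b the gap changed by 1.52 (SE 0.212, 1.07 to 1.96, adjusted p = 5.32e-05), which made 1 of 4 members against 4.17% of all. The 6 calls behind that share became 2 without 1/3PH 6H replicate 1 or 2/3PH 36H replicate 1, 3 without 1/3PH 6H replicate 2 or 1/3PH 36H replicate 2 or 3, 54 with the 75th percentile over all probes, and 0 in limma without scaling or with normexp. For miR-15b the gap went from -0.19 at 6H, which did not pass, to 1.33 at 36H. Of the livers after 2/3PH, 3 of 3 were lower than both at 6H and 3 of 3 higher at 36H. The call was lost without scaling (1.57, adjusted p = 0.969) and with normexp (0.94, adjusted p = 0.0559). The changes of miR-16 (0.67, adjusted p = 0.332), miR-195 (-0.44, adjusted p = 0.435) and miR-497 (-0.29, adjusted p = 0.614) did not pass. From 6H to 24H, limma called 0 members (0.694% of all; 0 at an unadjusted p under 0.05), with changes from -0.07 to 0.48.

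After 1/3PH no member changed by this test. Against normal liver limma called 0 of 4 at 6H (0.0% of all), 12H (4.17%), 24H (0.694%) and 36H (0.0%), and at an unadjusted p under 0.05 there was 1 member at 6H and 0 at the others. That member was miR-15b at 6H, with 0.34 (unadjusted p = 0.0453, adjusted p = 0.765, higher in 2 of 2 livers than in all normal livers). Without passing, miR-16 at 6H (0.42, limma adjusted p = 0.765) and miR-15b at 24H (0.28, adjusted p = 0.484) also lay above all normal livers. How many of all miRNAs separate this way was not counted, so the separation is not read as a result about the members. The 4 changes ran from 0.17 to 0.42 at 6H, from -0.38 to 0.26 at 12H, from -0.31 to 0.28 at 24H and from -0.13 to 0.28 at 36H. For miR-15b at 36H the change was 0.0 with an interval of -0.29 to 0.3, which leaves out the 1.33 found after 2/3PH. With the 75th percentile over all probes, 3 calls appeared over these 4 comparisons and 4 over the 3 earlier comparisons between operations.

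Against normal liver, 1 of 4 members passed the test at 24H after 2/3PH, miR-15b, and none at 6H or 12H. limma called 0 of 4 at 6H (0.0% of all; 0 at an unadjusted p under 0.05) and 0 at 12H (6.94%; 1 at an unadjusted p under 0.05), with changes from 0.06 to 0.16 and from -0.32 to 0.4. Over both times, 1 member was called without normal replicate 1 or without 2/3PH 24H replicate 2. At 24H miR-15b rose 1.43-fold (log2 0.52, SE 0.141, 0.22 to 0.81, adjusted p = 0.0147), higher in 3 of 3 livers than in all normal livers, which made 1 of 4 members against 18.1% of all. The others stayed short of the test, with 0.37 for miR-16, -0.3 for miR-195 and -0.27 for miR-497 (adjusted p = 0.36, 0.36 and 0.351), in directions that were those of 36H. The 24H call of miR-15b was lost without normal replicate 2 (0.46, adjusted p = 0.0567), normal replicate 3 (0.46, adjusted p = 0.0735) or 2/3PH 24H replicate 2 (0.32, adjusted p = 0.108), and with slide as a random block (0.51, adjusted p = 0.0512) or scan day as a fixed term (0.41, adjusted p = 0.0785). In all it was lost in 8 of 13 alternatives. The others were the 75th percentile over all probes (0.05, adjusted p = 0.983), no scaling (0.44, adjusted p = 0.904), normexp (0.37, adjusted p = 0.65), the deposited values (0.36, adjusted p = 0.215), a fit of only the groups compared (0.52, adjusted p = 0.175) and quantile normalization (0.36, adjusted p = 0.0769). Within scan day 1, 3 livers at 24H against 1 normal liver, the difference was 0.3. All comparisons with normal liver share the same 3 arrays, and the step from 24H to 36H was not tested.

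A comparison without normal livers sets the later hours (24H and 36H) against the earlier (6H and 12H) within an operation. After 2/3PH miR-15b rose by 0.65 (1.57-fold, SE 0.0997, 0.44 to 0.86, adjusted p = 3.76e-05), with 4 of 6 later livers above every earlier one. miR-195 fell by 0.39 (SE 0.128, adjusted p = 0.0204) and miR-497 by 0.34 (SE 0.111, adjusted p = 0.0198), each with the 3 livers of 36H below every earlier one. miR-16 differed by 0.3 (-0.04 to 0.64, adjusted p = 0.17), with 2 of 6 later livers above every earlier one. That is 3 of 4 members against 50 of 144 miRNAs (34.7%), so the share is set against a high background. Those 50 calls became 11 without scaling, 4 with the 75th percentile over all probes and 7 with normexp. They include biliary and leukocyte marker miRNAs, given below. After 1/3PH limma called 0 of 4 (9.72% of all; 0 at an unadjusted p under 0.05), with differences from -0.16 to 0.03. The 14 calls behind that share became 0 without 1/3PH 6H replicate 2, 9 without 1/3PH 6H replicate 1 or 12H replicate 2, 7 without 24H replicate 1, 6 without 24H replicate 2 and 8 without 36H replicate 2.

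Within scan day 1 (3 later against 4 earlier livers) the differences after 2/3PH were 0.25 for miR-15b, 0.08 for miR-16, -0.26 for miR-195 and -0.29 for miR-497. On day 3 (1 against 2) they were 1.17, 0.52, -0.48 and -0.38. Day 1 holds no 36H liver of this operation, so its smaller values are those of 24H alone. The calls of miR-195 and miR-497 were lost without 2/3PH 12H replicate 2 (adjusted p = 0.054 and 0.0521) or 2/3PH 24H replicate 3 (adjusted p = 0.0511 and 0.0577), and that of miR-195 also without 2/3PH 6H replicate 2 (adjusted p = 0.0562). They were lost too without scaling (-0.29 and -0.24), with the 75th percentile over all probes (-0.46 and -0.41) and with normexp (-0.21 and -0.18). The call of miR-15b was lost without scaling (0.75, adjusted p = 0.0858) and with the 75th percentile over all probes (0.58, adjusted p = 0.471). With slide as a random block the 4 differences were 0.67, 0.31, -0.41 and -0.36.

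**Figure D2:**
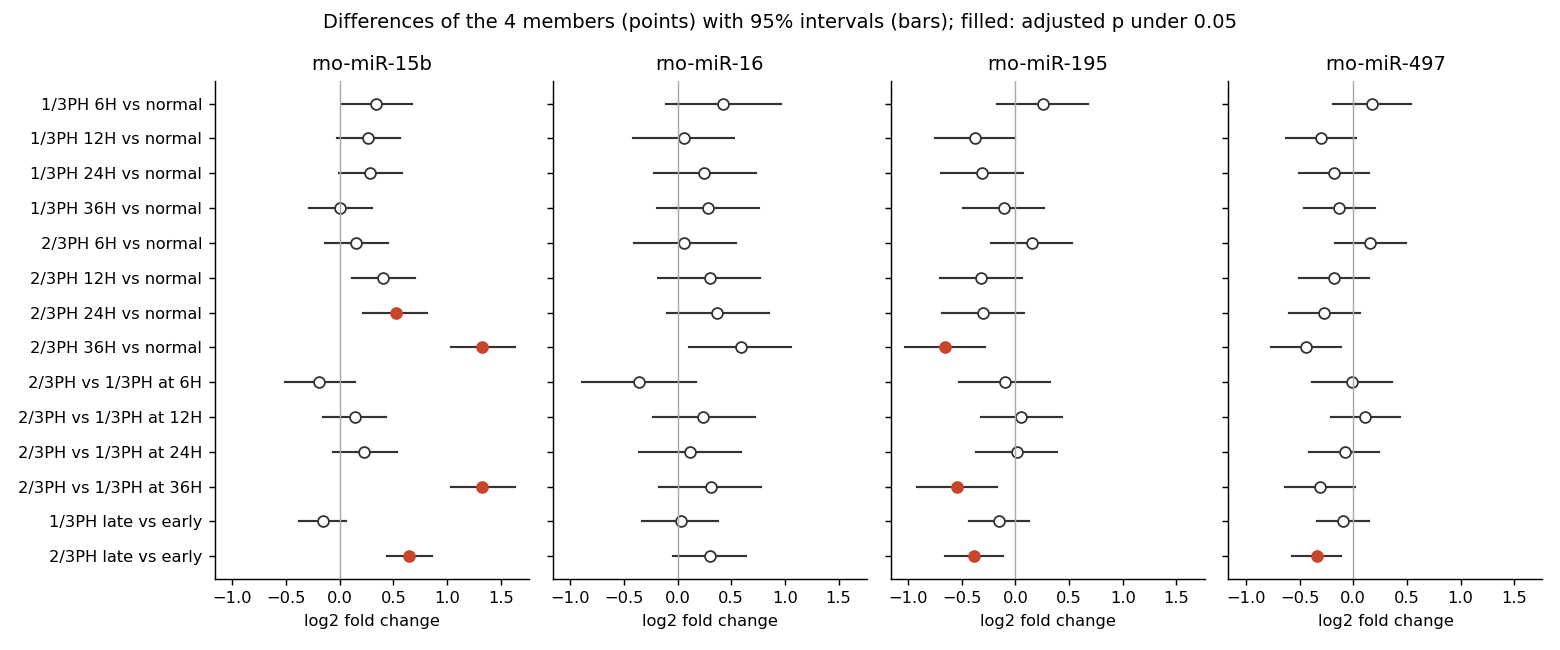
Log2 fold change (points) and 95% interval (bars) of each member in 14 comparisons, filled where the adjusted p was under 0.05. miR-15b stood at 1.33 in both 36H comparisons of 2/3PH, and miR-195 at -0.66 against normal liver and -0.54 against 1/3PH.

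One test per member took all 9 groups at once, without choosing a pair. The moderated F was 16.24 for miR-15b (adjusted p = 3.45e-05), 4.45 for miR-195 (adjusted p = 0.0138), 3.14 for miR-497 (adjusted p = 0.0581) and 1.4 for miR-16 (adjusted p = 0.445). The group means behind these tests spanned 227.4 to 573.6 for miR-15b, 224.6 to 422.6 for miR-195, 185.5 to 283.6 for miR-497 and 637.9 to 959.8 for miR-16. That is 2 of 4 members against 29.9% of all. With scan day as a fixed term miR-16 (F 4.12, adjusted p = 0.0226) and miR-497 (F 4.66, adjusted p = 0.015) passed too. miR-497 also passed without normal replicate 2 (F 4.82, adjusted p = 0.0111), 1/3PH 12H replicate 1 (F 3.62, adjusted p = 0.038) or 1/3PH 12H replicate 2 (F 4.29, adjusted p = 0.0172). The call of miR-195 was lost without scaling (F 1.64, adjusted p = 0.581), with normexp (F 2.26, adjusted p = 0.484) and with the deposited values (F 3.3, adjusted p = 0.0736), and that of miR-15b without scaling (F 2.65, adjusted p = 0.195).

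miR-15b was then measured relative to miR-16 on the same array, where scaling cancels. The log2 ratio, minus its mean in normal liver, was -0.15, 0.22 and -0.07 in the normal livers. After 1/3PH it was -0.01 and -0.16 at 6H, -0.11, 0.8 and -0.06 at 12H, -0.15, -0.06 and 0.3 at 24H, and -0.32, -0.27 and -0.25 at 36H. After 2/3PH it was -0.05, -0.07 and 0.39 at 6H, -0.01, 0.04 and 0.28 at 12H, -0.01, 0.4 and 0.05 at 24H, and 0.6, 0.66 and 0.98 at 36H. The ratio was high at 2/3PH 36H and low at 1/3PH 36H, and these groups overlapped neither with each other nor with normal liver, but 1 array at 1/3PH 12H, the one with low total signal, reached the range of 2/3PH 36H. The group means, from the highest, were 0.75 (SD 0.2) at 2/3PH 36H, 0.21 (0.51) at 1/3PH 12H, 0.14 (0.22) at 2/3PH 24H, 0.1 (0.15) at 2/3PH 12H, 0.09 (0.26) at 2/3PH 6H, 0.03 (0.24) at 1/3PH 24H, 0.0 (0.19) in normal liver, -0.09 (0.11) at 1/3PH 6H and -0.28 (0.04) at 1/3PH 36H. Of these neighbours only the last pair did not overlap.

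At 36H after 2/3PH the ratio of the cluster mates passed limma in both comparisons, with calls that depended on single arrays and background correction, as given below. Relative to miR-16, miR-15b was 1.68-fold higher than in normal liver (log2 0.75, SE 0.226, 0.27 to 1.22, adjusted p = 0.0169, higher in 3 of 3). It was 2.04-fold higher than after 1/3PH (log2 1.03, SE 0.226, 0.56 to 1.5, adjusted p = 0.0127, higher in 3 of 3). An exact two-sided permutation test of 3 against 3 arrays gave p = 0.1 in both, the smallest that it can give. Between later and earlier hours after 2/3PH the ratio differed by 0.35 (adjusted p = 0.104; exact permutation p = 0.0606, where 0.00216 is the smallest possible), and after 1/3PH by -0.22 in the exact permutation test (p = 0.342). The change of the gap between operations from 6H to 36H was 0.85 (adjusted p = 0.126), and the F over 9 groups 2.99 (adjusted p = 0.093), so neither passed.

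The ratio moved with the scan batch. In each of the 6 groups with an array of scan day 3, that array had the highest ratio of its group, and on slide 5 (5 arrays of 5 groups) the mean deviation from the group mean was 0.31 for the ratio, -0.35 for miR-16 and -0.04 for miR-15b. Within day 2 the ratio at 2/3PH 36H differed from normal liver by 0.7, and within day 3 by 0.76, close to the pooled 0.75. With scan day as a fixed term the 36H differences were 0.7 against normal liver and 0.78 between operations, where no day is shared and other groups link the days, and with slide as a random block 0.77 and 1.05. The later-minus-earlier difference became 0.38 (adjusted p = 0.00636) and the 6H to 36H change 0.76 (adjusted p = 0.0121) with scan day as a fixed term. What part of the ratio's spread comes from the batch was not tested.

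Single arrays moved these calls across the threshold. Against normal liver the call was lost without normal replicate 3 (0.71, adjusted p = 0.0556) or 2/3PH 36H replicate 3 (0.63, adjusted p = 0.0574). Between operations it was lost without 1/3PH 36H replicate 1 (1.01, adjusted p = 0.0678), 2 (1.03, 0.0552) or 3 (1.04, 0.0524) or 2/3PH 36H replicate 3 (0.91, adjusted p = 0.0855). Without 1/3PH 12H replicate 2, the array with low total signal, the later-minus-earlier difference (0.35, adjusted p = 0.0248) and the 6H to 36H change (0.85, adjusted p = 0.0199) passed. With normexp the 36H differences were 0.6 and 0.81 and did not pass.

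**Figure D3:**
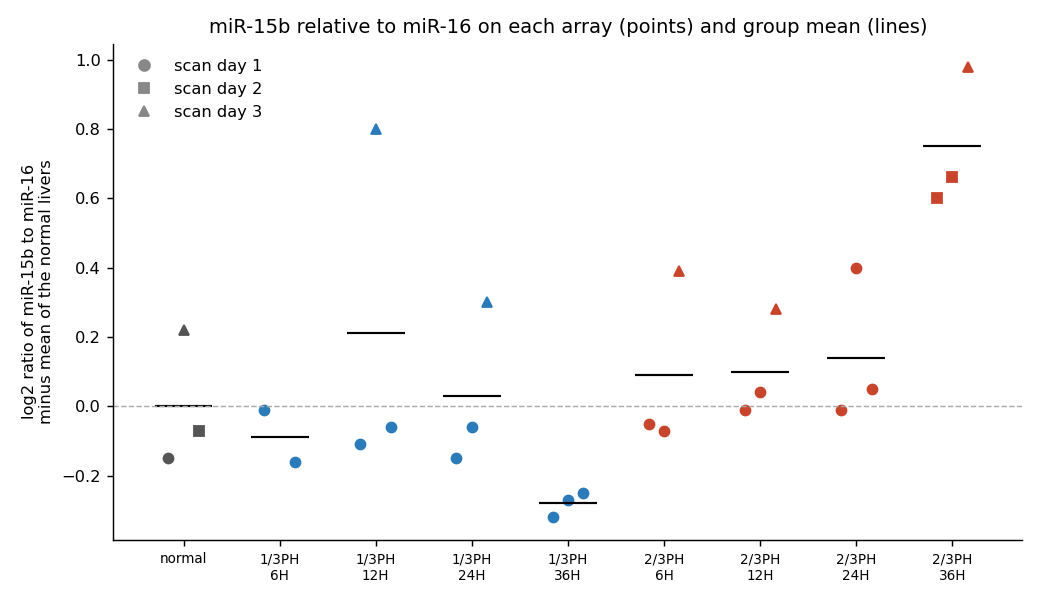
Log2 ratio of miR-15b to miR-16 on each array, minus its mean in normal liver, with group means (lines) and scan day by shape. The 2/3PH 36H livers lie at 0.6 to 0.98 and the 1/3PH 36H livers at -0.32 to -0.25.

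The other cluster was also measured against miR-16 on the same array. The ratio of miR-195 to miR-16 fell by 0.62 at 12H after 2/3PH (adjusted p = 0.0447), by 0.67 at 24H (adjusted p = 0.0192) and by 1.24 at 36H (0.422-fold, -1.59 to -0.9, adjusted p = 3.79e-05), lower in 3 of 3 livers than in all normal livers each time. The ratio of miR-497 fell by 0.64 at 24H (adjusted p = 0.0306) and by 1.03 at 36H (0.49-fold, -1.39 to -0.67, adjusted p = 0.00026), also lower in 3 of 3. After 1/3PH the ratio of miR-195 was lower too, by values that did not pass: -0.43 at 12H (adjusted p = 0.324), -0.56 at 24H (adjusted p = 0.111) and -0.39 at 36H (adjusted p = 0.666), each with 3 of 3 livers below all normal livers. The median of all ratios after 1/3PH was 0.05 at 12H, -0.24 at 24H and -0.21 at 36H, with 1.4%, 0.699% and 0.0% called. How many of all ratios separate from normal liver this way was not counted. Between operations the ratio of miR-195 differed by -0.19 at 12H (adjusted p = 0.557) and by -0.11 at 24H (adjusted p = 0.948), so the lower ratio at 12H and 24H was not shown to differ between operations. A ratio shows unequal change and not which of its parts changed. After 2/3PH, 1 of the 3 members measured against miR-16 passed at 12H (4.2% of 143 miRNAs did), 2 at 24H (8.39%) and 3 at 36H (35.7%). At 36H the median of all ratios was -0.53 and 48 of the 51 called were lower. miR-15b was 1 of the 3 called higher. At 12H and 24H that median was -0.26 and -0.32. Between operations at 36H, where it was -0.44, 3 of 3 passed against 6.29% of all: miR-195 with -0.85 (adjusted p = 0.00731), miR-497 with -0.61 (adjusted p = 0.0412), both lower in 3 of 3, and miR-15b as above. Single arrays decided several of these calls. The 12H call of miR-195 held without 7 of 26 single arrays and was lost without the others, most clearly without 2/3PH 12H replicate 2 (-0.55, adjusted p = 0.361). Its 24H call was lost without normal replicate 3 (-0.58, adjusted p = 0.0985), 2/3PH 24H replicate 2 (-0.59, adjusted p = 0.112) or replicate 3 (-0.66, adjusted p = 0.112). That of miR-497 was lost without normal replicate 2 (-0.66, adjusted p = 0.0723), normal replicate 3 (-0.55, adjusted p = 0.131), 2/3PH 24H replicate 2 (-0.61, adjusted p = 0.116) or replicate 3 (-0.6, adjusted p = 0.113). Between operations miR-195 did not pass without 1/3PH 36H replicate 2 (-0.78, adjusted p = 0.0552), and miR-497 passed without 8 of 26 single arrays and not without the others, such as 2/3PH 36H replicate 1 (-0.56, adjusted p = 0.171). Over 13 alternatives the call of miR-497 between operations was lost in 6 (values to -0.1, adjusted p up to 0.817), that of miR-195 in 3 (values to -0.34, adjusted p up to 0.679), and the 24H call of each in 4 (adjusted p up to 0.917 and 0.734). Scaling cancels in a ratio, so no scaling and the percentile over all probes are no test in these tallies of ratios.

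Later against earlier hours after 2/3PH, the ratios of miR-195 (-0.69, adjusted p = 0.000308) and miR-497 (-0.64, adjusted p = 0.000844) fell, 2 of 3 members against 29.4% of all, where the median of all ratios was -0.27. The 3 livers at 36H lay below every earlier one for both. From 6H to 36H the gap between operations changed by -1.11 for miR-195 (SE 0.252, -1.63 to -0.58, adjusted p = 0.0365), the only ratio called among 143 (0.699%), and by -0.96 for miR-497 (adjusted p = 0.0553), where the median of all ratios was -0.77. Over 9 groups 2 of 3 ratios passed, miR-195 (F 11.19, adjusted p = 0.000216) and miR-497 (F 7.26, adjusted p = 0.00287), against 17.5% of all. The change from 6H to 36H of miR-195 passed without 12 of 26 single arrays and not without the others, such as 1/3PH 6H replicate 1 (-1.05, adjusted p = 0.34), and that of miR-497 passed without 5 of them, such as 1/3PH 12H replicate 2 (-0.96, adjusted p = 0.00921). The 12H call of miR-195 held in 8 of 14 alternatives, and the 36H falls of both against normal liver in 13 of 14 and without each of 26 arrays. Here too the settings that only rescale arrays were no test. With normexp these 36H values were -0.65 for miR-195 (adjusted p = 0.145) and -0.41 for miR-497 (adjusted p = 0.79), and the later-minus-earlier calls were lost too (-0.43 and -0.39, adjusted p = 0.244 and 0.398).

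The members of the other cluster were compared in the same way. Minus its mean in normal liver, their log2 ratio had group means from -0.22 (SD 0.03) at 2/3PH 36H to 0.08 (SD 0.02) at 1/3PH 6H. At 2/3PH 36H it was -0.25, -0.2 and -0.2, below the normal livers (0.03, -0.04 and 0.01), and 1 array at 1/3PH 24H was as low (-0.25). Over 26 arrays their log2 signals correlated with r = 0.97 (Spearman's rho 0.97), and with 0.97 after the group means were taken out. miR-15b and miR-16 correlated with r = 0.59 (rho 0.75), 0.55 without the 2 arrays farthest from the median, 0.51 without 2/3PH 36H, 0.78 over the 9 group means and 0.47 over residuals. These points share arrays and their scaling, and the difference between the correlations was not tested.

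**Figure D4:**
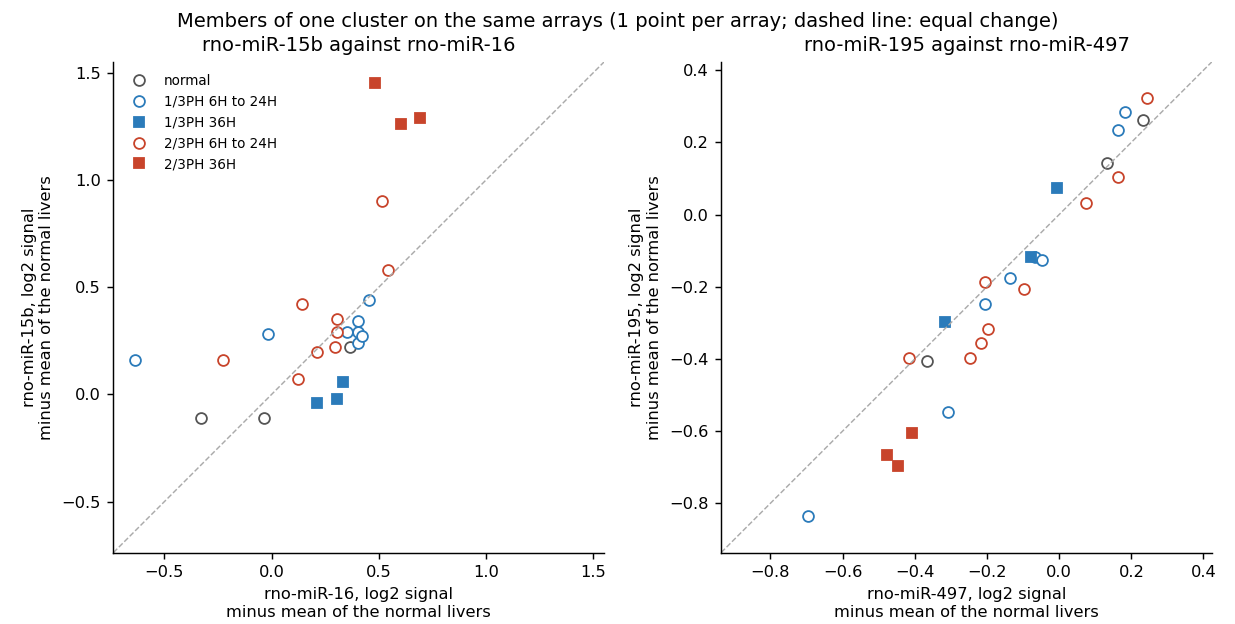
Log2 signal minus the mean of the normal livers, 1 point per array, for the members of each cluster against each other, with a dashed line of equal change. The 2/3PH 36H squares leave the line for miR-15b against miR-16 (r = 0.59) and stay near it for miR-195 against miR-497 (r = 0.97).

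Across clusters the relation depended on what was left out. miR-16 and miR-195, the pair with the most similar sequences, had r = 0.14 (rho -0.05) over 26 arrays, -0.28 without the 2 farthest arrays, 0.46 without 2/3PH 36H, -0.39 over group means and 0.87 over residuals. miR-16 and miR-497 behaved alike, with 0.19 (rho -0.03), -0.3, 0.46, -0.39 and 0.86. These members thus varied together within groups and not between them. Within groups they also moved with the slide: on slide 5 the mean deviation from the group mean was -0.35 for miR-16, -0.26 for miR-195 and -0.21 for miR-497, and on scan day 3 it was -0.31, -0.22 and -0.18. The part of slide and scan day in these correlations was not tested. miR-15b had r = -0.5 (rho -0.37) with miR-195 and -0.4 (rho -0.31) with miR-497, and -0.12 and -0.04 without 2/3PH 36H, so the inverse relation rests on that group. Over group means the values were -0.68 and -0.63, but over residuals 0.32 and 0.41, so the relation was not inverse within groups.

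Both probes of each member gave the same direction. At 2/3PH 36H against normal liver the log2 differences of the 2 probes were 1.53 and 1.27 for miR-15b, 0.62 and 0.58 for miR-16, -0.67 and -0.65 for miR-195, and -0.39 and -0.45 for miR-497. Against 1/3PH 36H they were 1.61 and 1.24, 0.47 and 0.28, -0.53 and -0.55, and -0.22 and -0.32. The ratio of miR-15b to miR-16 passed with each of the 4 probe pairs in both comparisons.

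Among the other 81 miRNAs detected on all arrays, those most like miR-15b over 26 arrays were miR-130a (r = 0.79), miR-25 (0.78) and miR-34a (0.75), and the least like was miR-26a (-0.73). miR-16 held place 7. For miR-16 they were miR-25 (0.82), let-7i (0.72) and miR-324-3p (0.67), with miR-30c lowest (-0.7). For miR-195 they were miR-497 (0.97), miR-10a-5p (0.75) and miR-3588 (0.75), and for miR-497 they were miR-195 (0.97), miR-652 (0.76) and miR-3588 (0.75), with miR-200b lowest for both (-0.65 and -0.62). Over residuals from group means the r of miR-15b with miR-34a was 0.06 and that of miR-16 with miR-25 was 0.89, so the first likeness lay between groups and the second also within them.

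The wider family added little signal. Of 10 other arms and relatives listed, 7 are on the array and 6 of those were detected on no array: the star arms of the 4 members and of miR-322, and miR-503. miR-15a, its star arm and miR-424 are not on the array. miR-322, the relative with the same seed, was detected on 26 of 26 arrays and differed by -0.27 at 2/3PH 36H against normal liver (SE 0.136, adjusted p = 0.16), by -0.19 against 1/3PH 36H (adjusted p = 0.463) and by -0.1 between later and earlier hours. So 0 of 1 tested relative passed limma, in a direction that was that of miR-195.

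Other cell cycle miRNAs set a frame for these changes at 2/3PH 36H against normal liver. A list of 13 names covered miRNAs known for favouring cell cycle entry, such as those of the miR-17/92 and miR-106b/25 clusters. It holds both miR-17-5p and miR-17, and the latter name is not on the array. Of the list, 11 were tested and 6 rose, with 0 lower, where 18.8% of all 144 were called, and the median of the 11 was 0.71 beside 0.06 for all. Among the 6 were miR-93 (1.15, SE 0.129, adjusted p = 2.1e-06) and miR-17-5p (1.07, SE 0.251, adjusted p = 0.00401), detected on 25 and 24 of 26 arrays. They kept their calls in 9 and 8 of 13 alternatives. miR-18a is also counted among the 6 but was detected on 14 of 26 arrays. Its value thus rests partly on signals set to an array's lowest bright probe, and its size is not ranked. It ran from 0.91 to 5.23 over 13 alternatives, of which 11 kept the call. Of 15 restraining miRNAs outside the family, 13 were tested, with 1 higher, 1 lower and a median of 0.0, a share near that of all miRNAs. miR-34a, a p53 target, rose (1.85, SE 0.215, adjusted p = 2.4e-06) and miR-26a fell (-0.64, SE 0.111, adjusted p = 0.000402). Each kept its call in 12 of 14 alternatives (adjusted p up to 0.0648 and 0.707). Beside them the family had 1 of 4 members up and 1 down.

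The same lists were counted in the other comparisons of 2/3PH. Against 1/3PH at 36H, where 15.3% of all were called, 6 of 11 promoting miRNAs were higher and 0 lower (median 0.58), and of the 13 restraining 2 were higher and 1 lower (median -0.05, beside -0.12 for all). Between later and earlier hours, where 34.7% of all were called, 9 of 11 promoting miRNAs rose and 0 fell (median 0.9), and 3 of 13 restraining rose and 4 fell (median -0.13, beside 0.04 for all). Against normal liver at 24H, with 18.1% of all called, 7 of 11 promoting were higher and 0 lower (median 0.56), and 1 restraining was higher and 1 lower. At 12H, with 6.94% called, 0 promoting were higher in limma and 1 lower, miR-19b (-0.63, adjusted p = 0.0454), and 2 restraining were lower, miR-101a (-0.94, adjusted p = 0.015) and miR-101b (-0.67, adjusted p = 0.0192). Between operations at 24H, with 2.78% called, 3 promoting were higher and no restraining miRNA was called. The study picked miR-93 and other list members by this same comparison, so that count is no test of the list. At 6H against normal liver and at 6H and 12H between operations limma called 0 of all 144 (15, 3 and 9 at an unadjusted p under 0.05).

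**Figure D5:**
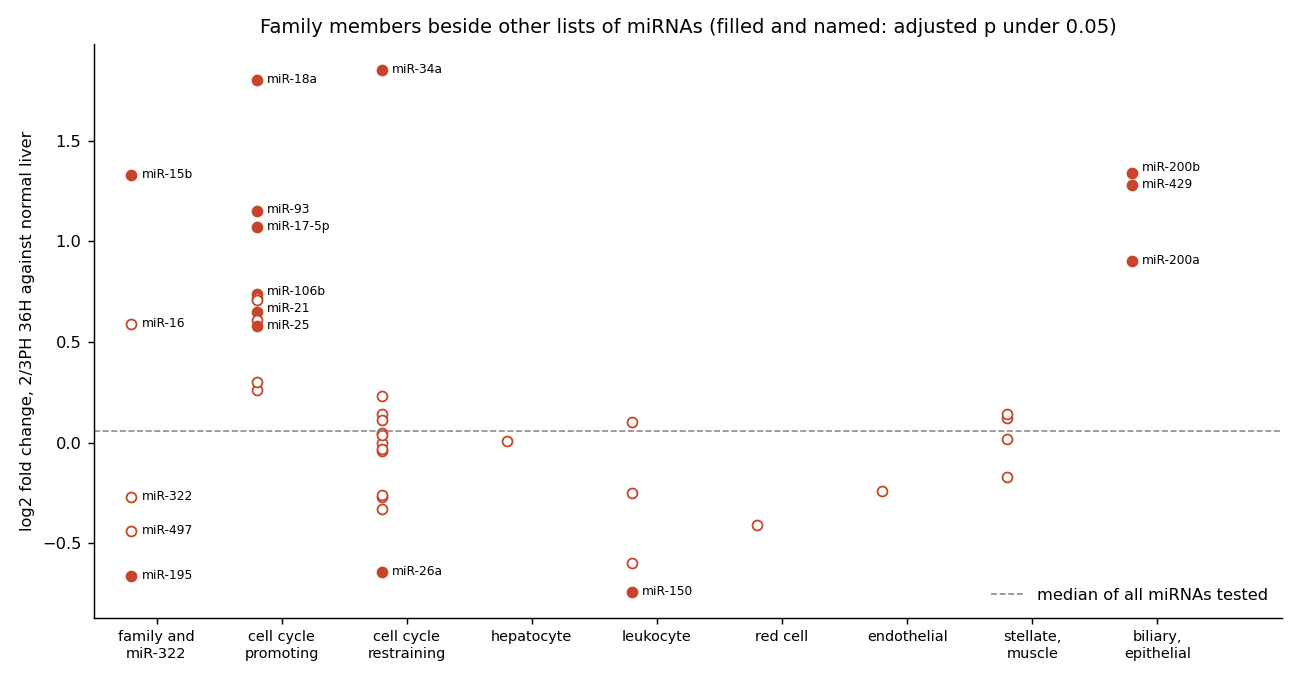
Log2 fold change at 2/3PH 36H against normal liver for the family with miR-322 and for other lists of miRNAs, filled and named where the adjusted p was under 0.05, with the median of all tested (dashed, 0.06). miR-15b lies at 1.33 and miR-195 at -0.66.

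Marker miRNAs of liver cell types were measured beside the family, and their part in its changes was not tested. The hepatocyte marker miR-122 had a scaled signal of 37503.0 ± 3677.7 (SD, n = 3) in normal liver, 38843.7 ± 3531.5 at 1/3PH 36H and 37595.6 ± 2429.2 at 2/3PH 36H, and its change against normal liver was 0.01 (0 of 1 passed). Of 5 biliary and other epithelial markers, 3 were tested and 3 rose at 2/3PH 36H against normal liver: miR-200b (1.34, adjusted p = 0.00247), miR-429 (1.28, adjusted p = 0.0036) and miR-200a (0.9, adjusted p = 0.0364), with a median of 1.28, while miR-200c and miR-141 were detected on no array. miR-200b was detected on 26 of 26 arrays, but miR-429 on 22 and miR-200a on 21. The values of these last, and the median, thus rest partly on signals set to an array's lowest bright probe. Over 13 alternatives the value of miR-429 ran from 0.83 to 3.32. The summed signal of the list, with miR-200b brightest, was 51.8 ± 22.0 in normal liver, 78.5 ± 31.7 at 1/3PH 36H and 125.5 ± 26.2 at 2/3PH 36H (146.5, 134.0 and 96.1), but also 112.5 ± 7.11 at 1/3PH 12H, where miR-15b did not pass. Against 1/3PH 36H, 1 of these 3 was higher. At 24H after 2/3PH against normal liver, where 18.1% of all were called, miR-429 (1.08, adjusted p = 0.0138) and miR-200b (0.87, adjusted p = 0.0437) were higher. Between later and earlier hours after 2/3PH, where 34.7% of all were called, 3 of 3 were higher (median 0.65). For 2/3PH 36H against normal liver, miR-200a did not pass without normal replicate 1 or 3 or any 2/3PH 36H replicate (adjusted p from 0.0518 to 0.15). Its call was also lost in 8 of 13 alternatives (adjusted p up to 0.648), that of miR-429 in 4 of 13 and that of miR-200b in 3 of 14 (up to 0.325 each), in each case with normexp, without scaling and with the percentile over all probes among them.

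Of 6 leukocyte markers 4 were tested, and miR-150 was lower at 2/3PH 36H (-0.74, adjusted p = 0.00247, with normexp 0.58, adjusted p = 0.201), with a median of -0.42. Its call was kept in 8 of 13 alternatives (adjusted p up to 0.648). At 2/3PH 24H, where the list's sum was 163.9 ± 21.2, miR-142-3p (-1.05, adjusted p = 0.0126) and miR-150 (-0.58, adjusted p = 0.0138) were lower than in normal liver. Later against earlier hours after 2/3PH, miR-146a (-0.6, adjusted p = 0.0014) and miR-150 (-0.51, adjusted p = 0.00117) were lower. The list's sum, in which miR-146a was brightest, was 229.1 ± 24.5 in normal liver, 218.7 ± 45.8 at 1/3PH 36H and 192.0 ± 5.47 at 2/3PH 36H, and miR-142-5p was detected on no array. Of 3 red cell markers 1 was tested (miR-451, -0.41, not called), with sums of 99.2 ± 9.35, 87.8 ± 27.1 and 75.1 ± 12.7 in the same groups. Of 2 endothelial markers 1 was tested (miR-126, -0.24, not called), with sums of 606.1 ± 66.8, 606.1 ± 70.9 and 506.3 ± 32.4. Of 5 markers of stellate cells and smooth muscle 4 were tested and 0 passed limma (median 0.07), with sums of 308.7 ± 40.5, 334.8 ± 50.1 and 288.4 ± 12.1. There miR-143 was brightest and miR-145 was detected on no array. miR-155 and miR-486, of the leukocyte and red cell lists, are not on the array.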

How the data were processed

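Right-lobe liver RNA of 26 male rats was hybridized to Agilent rat miRNA microarrays (677 miRNAs, 1644 probes). Per the file headers, the authors used Feature Extraction 10.7.3.1 by Agilent to read the intensity of 13540 spots as background-subtracted signal, with no normalization between arrays. The authors also deposited log2 values of 699 features that had been normalized between arrays, used here as an alternative. The main text of the paper does not state the method of that normalization.

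Unmarked spots were averaged, probes summed, arrays scaled to a common 75th percentile over 109 bright probes (well above background on each of 26 arrays), low values set to the array's lowest well-above probe, and log2 taken. limma 3.58.1 (lmFit, eBayes) was fitted to 144 miRNAs that some group had detected on each of its arrays. The single model had 9 groups (residual degrees of freedom 17, prior 2.32, prior SD 0.231). Adjustment was by Benjamini-Hochberg within each comparison, and an adjusted p under 0.05 made a call. The same model on log2 ratios to miR-16 covered 143 miRNAs (prior degrees of freedom 4.22, prior SD 0.361). Exact two-sided permutation was the second test of the ratio of miR-15b to miR-16.

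Named miRNAs are the members, at most the 3 of each list called with the largest fitted values, and the 3 most like and 1 least like each member among 82 detected on all arrays. Also named, called or not, are a list's only tested or brightest member and list members not detected or not on the array. The members and lists were chosen with earlier results of these data known. The settings varied were scaling (none, quantile normalization, or the percentile taken over all probes), background (normexp with offset 50), summary (the software's total signal, or 1 brightest probe), the deposited values, 2 detection filters, slide as a random block (consensus correlation 0.195) or fixed block, scan day as a fixed block, only the groups compared, eBayes with trend, single probe pairs, and leaving out each array. Groups follow the sample titles, and no deposited array was left out. Detection covered 91 to 155 miRNAs per array, and the number of arrays limits the precision. The procedure was tested on simulated data. Python 3.11.15, numpy 2.4.6, pandas 2.3.3, scipy 1.17.1, matplotlib 3.10.9, R 4.3.3 and version 1.17.8 of data.table were used.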

Additional observations from a re-analysis of the deposited data

Results flagged for a closer look

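The gap between 2/3PH and 1/3PH in miR-15b changed by 1.52 in log2 between 6H and 36H (SE 0.212, 1.07 to 1.96, adjusted p = 5.32e-05). It went from -0.19 at 6H, which did not pass, to 1.33, with 3 of 3 livers lower at 6H and 3 of 3 higher at 36H. It is listed because the difference between the times passed its own test, and it passed without each of 26 single arrays and in 11 of 13 alternatives, over which it ran from 0.94 to 3.27. For the same reason the ratio of miR-195 to miR-16 is listed, whose gap between operations changed by -1.11 (SE 0.252, -1.63 to -0.58, adjusted p = 0.0365), from 0.26 at 6H to -0.85 at 36H, where 3 of 3 livers were lower. The median of all 143 ratios changed by -0.77 in the same comparison, and the level of miR-195 itself by -0.44, which did not pass (adjusted p = 0.435). The change of the ratio passed in 7 of 13 alternatives, of which those that only rescale arrays were no test because scaling cancels. It passed without 12 of 26 single arrays. Its adjusted p reached 0.654 over the alternatives, and over single arrays left out it was highest without 1/3PH 6H replicate 1 (-1.05, adjusted p = 0.34), which leaves 1 liver in that group.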

How the results depend on the processing

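miR-15b against normal liver at 2/3PH 36H kept its call in 12 of 14 alternatives and without each of 26 arrays (1.27 to 1.44), against 1/3PH 36H in 12 of 13 (1.27 to 1.37), between later and earlier hours in 11 of 13 (0.55 to 0.7), for the change from 6H to 36H in 11 of 13 (1.42 to 1.62) and at 24H in 5 of 13. miR-195 at 36H against normal liver kept it in 10 of 14. The causes of the changes below were not tested. Signal over background limits which miRNAs can be read. No paired analysis was possible because replicate numbers link no rats between groups. Slide as a fixed block could not be fitted between operations at 36H, at 24H against normal liver, between later and earlier hours, or over the 9 groups. Without 1 array of 1/3PH 6H, the lone liver is assumed to vary like the other groups.

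Values that lost or gained a call follow, with adjusted p. Without scaling, 36H against normal liver gave 1.18 (0.15) for miR-15b and -0.81 (0.437) for miR-195, against 1/3PH 1.2 (0.396) and -0.67 (0.738), later against earlier 0.75 (0.0858), -0.29 (0.746) and for miR-497 -0.24 (0.793), 24H 0.44 (0.904) and the 6H to 36H change 1.57 (0.969) for miR-15b, and F 2.65 (0.195) for miR-15b and 1.64 (0.581) for miR-195. With the 75th percentile over all probes, 36H against normal liver gave 1.25 (0.325) and -0.74 (0.702), against 1/3PH -0.06 (0.963) for miR-195 and 0.18 (0.938), reversed, for miR-497, later against earlier 0.58 (0.471), -0.46 (0.647) and -0.41 (0.687), 24H 0.05 (0.983) for miR-15b, and F 2.92 (0.0203) for miR-16 and 3.49 (0.00915) for miR-497, while 3 member calls appeared after 1/3PH and 4 between operations before 36H, where there had been 0.

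With normexp, miR-195 had -0.28 (0.169) against normal liver, -0.19 (0.315) against 1/3PH, -0.21 (0.759) later against earlier and F 2.26 (0.484), miR-497 had 0.05 (0.776), reversed, against 1/3PH and -0.18 (0.999) later against earlier, miR-15b had 0.37 (0.65) at 24H and 0.94 (0.0559) for the 6H to 36H change, its ratio to miR-16 had 0.6 (0.338) and 0.81 (0.272), and miR-150 had 0.58 (0.201), reversed. Quantile normalization gave -0.46 (0.018) and F 5.68 (0.00681) for miR-497, -0.47 (0.0752) for miR-195 against 1/3PH and 0.36 (0.0769) for miR-15b at 24H. The deposited values gave -0.46 (0.0422), F 4.02 (0.0446), -0.47 (0.128) and 0.36 (0.215) for the same, and F 3.3 (0.0736) for miR-195.

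For miR-497 at 36H against normal liver, total gene signal gave -0.47 (0.0452), detection on every array -0.44 (0.0413; F 3.36, 0.0352), trend -0.44 (0.0419; F 3.46, 0.0362), random slide -0.46 (0.0222) and fixed scan day -0.41 (0.0354; F 4.66, 0.015). For miR-195 against 1/3PH, total gene signal gave -0.54 (0.0628), the brightest probe -0.55 (0.0861; later against earlier -0.37, 0.0528), detection on at least 1 array -0.54 (0.0921), random slide -0.56 (0.0719) and fixed scan day -0.32 (0.382). miR-15b at 24H had 0.51 (0.0512) with random slide and 0.41 (0.0785) with fixed scan day. Fixed slide gave 0.68 (0.0516) for miR-16 and -0.56 (0.072) for miR-497 at 36H against normal liver. There miR-16 had 0.57 (0.0376) with random slide and 0.71 (0.00188) with fixed scan day, which also gave 0.73 (0.0191) against 1/3PH, 0.33 (0.0236) later against earlier and F 4.12 (0.0226). Fits of only the groups compared gave -0.66 (0.0546) for miR-195 at 36H, 0.52 (0.175) for miR-15b at 24H and 0.85 (0.0444) for the ratio's 6H to 36H change.

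For the ratio of miR-15b to miR-16, exact permutation gave 0.75 and 1.03 (p = 0.1 each). Later against earlier and for the 6H to 36H change, its first probe over the first of miR-16 gave 0.44 (0.0493) and 1.05 (0.039), its second over that one 0.36 (0.021) and 0.74 (0.0376), and fixed scan day 0.38 (0.00636) and 0.76 (0.0121).

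Leaving out single arrays gave ranges, at 36H against normal liver, of 0.43 to 0.77 for miR-16, -0.86 to -0.53 for miR-195, -0.62 to -0.32 for miR-497 (F 2.55 to 4.82) and 0.63 to 0.86 for the ratio. They were -0.64 to -0.45 for miR-195 and 0.91 to 1.1 for the ratio against 1/3PH, -0.42 to -0.35 for miR-195, -0.36 to -0.31 for miR-497 and 0.29 to 0.42 for the ratio later against earlier, 0.32 to 0.63 for miR-15b at 24H, 0.74 to 1.0 for the ratio's 6H to 36H change, and 0 to 1 calls at 6H and 12H after 2/3PH. Of all miRNAs, 21 to 35 were called at 36H against normal liver, 7 to 22 against 1/3PH and 9 to 32 at 24H, with 0 under at least 1 scaling each. The lowest counts came at 24H without normal replicate 3 (14) or 2/3PH 24H replicate 1 (9), 2 (15) or 3 (11), and 36H against 1/3PH without 1/3PH 36H replicate 2 (11) or 3 (8) or 2/3PH 36H replicate 1 (7). Later against earlier hours after 1/3PH, 0 to 14 were called, and 2 to 7 for the 6H to 36H change, which had 54 with the 75th percentile over all probes and 0 without scaling or with normexp. Later against earlier hours after 2/3PH, the 50 calls became 11, 4 and 7 without scaling, with the percentile over all probes and with normexp.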
